A study of Mus musculus with 30 samples.

Results

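The 6 libraries described here compare C2C12 myotubes grown for 4 days of differentiation on unpatterned gelatin with C2C12 myotubes grown for the same time on plastic. They were chosen by their labels alone and are 3 libraries per substrate of 30 in the whole series. C2C12 is an immortalised mouse myoblast line that fuses into contractile myotubes once serum is lowered, here to 2% horse serum. The unpatterned group sat on a porcine gelatin hydrogel that was pressed with a flat stamp and crosslinked with microbial transglutaminase, so it shares the material of the patterned hydrogels of the same study but has no grooves. The plastic group sat on an ordinary culture dish. All cultures were loosened briefly with trypsin to enrich for myotubes, which leaves some unfused cells, before RNA was taken into Trizol and sequenced as paired ends. The study describes separate cultures for each replicate, all of a single cell line, so the replicate error covers culture and library and no other genetic background. The paper used different batches of C2C12 cells and reports that the regulated genes often differed between batches. The labels of these libraries name no batch, so the replicate error cannot be said to cover batch. Day 4 patterned gelatin, day 7 unpatterned gelatin with day 7 plastic, and undifferentiated day 0 cells, each with 3 libraries, are used below only as points of comparison.

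A gelatin gel is softer than a plastic dish and is itself a form of collagen, the matrix protein that integrins recognise. Myotubes respond to low oxygen through the transcription factor HIF-1, which binds a short DNA core and turns on genes for glucose uptake, glycolysis, pH control and vessel growth. They also respond to injury, microbial products and cytokines through NF-kB, which turns on chemokines, adhesion molecules and its own inhibitors, and to stretch and adhesion through serum response factor, YAP and integrin signalling. The comparison asks which of these programmes, and which muscle genes, differ between the soft gel without a pattern and the dish. Since RNA was taken in bulk from the cells released from each culture, fewer cells of a type and less RNA per cell cannot be told apart.

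The depth was 22.0, 25.0 and 29.8 in the unpatterned libraries and 23.3, 23.6 and 59.4 in the plastic libraries, in units of 1e6 estimated counts. Levels are given as CPM, counts per 1e6 counts of a library, scaled between libraries by TMM, in the order replicate 1, 2 and 3. The summed CPM of 8 myotube markers was 15060 to 16850 on unpatterned gelatin and 15990 to 16360 on plastic, so both groups were myotube cultures by this measure. The sum of 12 markers of myoblasts and reserve cells was 633 to 688 CPM on unpatterned gelatin and 643 to 680 CPM on plastic. Markers of leukocytes summed to at most 2.88 CPM on unpatterned gelatin and 3.20 CPM on plastic, and the macrophage marker Adgre1 was at 0 in all 6 libraries. The groups also stood apart in a technical measure, the mean fragment length implied by the deposited effective lengths, at 221, 230 and 256 bases on unpatterned gelatin and 216, 213 and 214 bases on plastic.

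Of 14844 genes tested, 1171 (7.89%) passed an adjusted p of 0.05, 597 of them higher (4.02%) and 574 lower (3.87%) on unpatterned gelatin than on plastic. Most changes were small: the median absolute log2 fold change of the genes called was 0.41, and 66 genes lay above a log2 fold change of 1 and 52 below -1. The 3 unpatterned values did not overlap the 3 plastic values in 1169 of the 1171 genes, against 39.6% of all genes tested. The count fell by more than 1.5 times without any library but unpatterned replicate 1, without which 891 genes passed. It was 281 without unpatterned replicate 2, 263 without unpatterned replicate 3, and 439, 287 and 462 without plastic replicates 1, 2 and 3. When log2 TPM plus 1 was tested with limma in place of counts, 950 genes were higher and 62 lower, and when a GC and length trend was removed from each library 408 were higher and 242 lower. Of the 1171 genes, 529 (45.2%) were also called in the same direction by limma, and 462 (39.5%) after the trend was removed. No gene called in the count test was called in the opposite direction under these alternatives.

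GC content moved with the direction of change. The genes that rose had a median GC content of 45.8% and those that fell 57.0%, against 50.3% over all genes tested. In the most GC-rich class, over 56%, 18 genes rose and 348 fell of 2852, while in the class under 44% 178 rose and 6 fell of 2463. The level at 60% GC relative to that at 40% GC, on the log2 scale, was 0.06, -0.21 and -0.31 in the unpatterned libraries and 0.15, 0.39 and 0.09 in the plastic libraries. The part of GC content and fragment length in the changes was not tested, and the plot of the gene lists gives counts for each list shown also after the trend was removed. The bar plot of calls by GC class and the plot of the trend in each library show both sides of this.

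**Figure D1:**
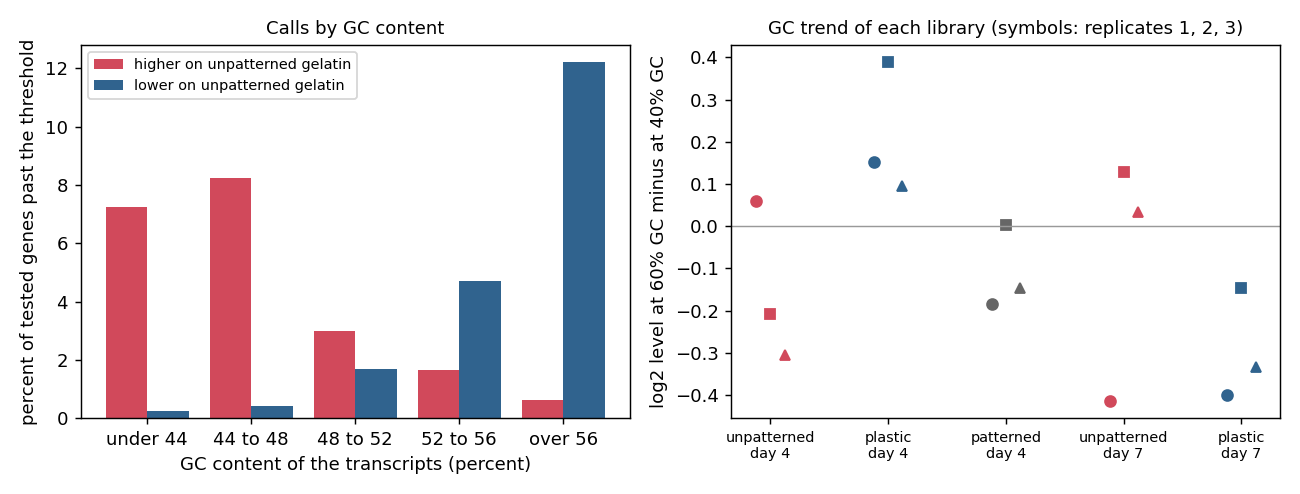
Left, percent of tested genes past an adjusted p of 0.05 in 5 classes of transcript GC content, higher (red) and lower (blue) on unpatterned gelatin at day 4. Right, for each library the fitted log2 level at 60% GC minus that at 40% GC, by group. Genes that fell on unpatterned gelatin reach 12.2% in the class over 56% GC and genes that rose reach 8.25% in the class from 44 to 48% GC, and the 3 plastic libraries of day 4 all lie above the 3 unpatterned ones.

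Genes that respond to hypoxia were higher on unpatterned gelatin. Of 40 genes listed, 38 were tested and 15 rose (4.02% of all genes tested rose), none fell, and 34 had a log2 fold change above 0, with a median of 0.28 against -0.01 over all genes tested. With the GC and length trend removed 13 rose, 12 of them among the 15. Leaving out a library gave 11 to 13, lowest without unpatterned replicate 3.

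Car9, a carbonic anhydrase on the cell surface that is a standard mark of HIF-1 activity, stood at 12.1, 9.26 and 7.77 CPM on unpatterned gelatin and at 0.447, 0.982 and 0.513 CPM on plastic. Every gelatin library was several times above every plastic one, a log2 fold change of 3.95 ± 0.26 (SE, n = 3 each, adjusted p = 5.3e-08). Car12, a related carbonic anhydrase, had 1.81, 1.5 and 1.36 CPM on unpatterned gelatin and 0.134, 0.384 and 0.442 CPM on plastic (log2 fold change 2.15 ± 0.45, adjusted p = 0.010). Apln, which encodes the vascular peptide apelin, had 6.90, 4.43 and 4.50 CPM on unpatterned gelatin and 0.403, 0.427 and 0.371 CPM on plastic (3.72 ± 0.26, adjusted p = 6.9e-08). These are the steepest changes of the list.

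Ak4, a mitochondrial adenylate kinase induced by hypoxia, had 12.2, 9.26 and 9.38 CPM on unpatterned gelatin and 2.82, 2.60 and 2.87 CPM on plastic (1.88 ± 0.17, adjusted p = 5.9e-06). Ero1l, the oxidase that drives disulfide formation in the endoplasmic reticulum, had 67.5, 53.3 and 59.4 CPM on unpatterned gelatin and 30.5, 30.3 and 30.1 CPM on plastic (0.99 ± 0.15, adjusted p = 0.0014). Bnip3, a receptor for the removal of mitochondria by autophagy, had 99.7, 93.7 and 84.9 CPM on unpatterned gelatin and 51.7, 46.9 and 52.5 CPM on plastic (0.88 ± 0.09, adjusted p = 2.0e-05). Its relative Bnip3l rose by less, with 134, 137 and 138 CPM on unpatterned gelatin and 112, 107 and 112 CPM on plastic (0.30 ± 0.06, adjusted p = 0.010). All 4 calls held when each library was left out in turn.

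Pdk1, the kinase that turns off pyruvate dehydrogenase, had 86.6, 86.8 and 80.7 CPM on unpatterned gelatin and 60.1, 56 and 60.2 CPM on plastic (0.53 ± 0.07, adjusted p = 5.7e-04). Plod2, a collagen lysyl hydroxylase, had 117, 113 and 120 CPM on unpatterned gelatin and 90.3, 94.9 and 94.6 CPM on plastic (0.32 ± 0.07, adjusted p = 0.0098), and did not pass with the GC and length trend removed (0.19, adjusted p = 0.085). Both calls held without each library in turn. Angptl4, a secreted inhibitor of lipoprotein lipase, also rose and was highest in unpatterned replicate 3. It had 7.78, 8.69 and 22.7 CPM on unpatterned gelatin and 4.92, 3.76 and 4.53 CPM on plastic (1.58 ± 0.28, adjusted p = 0.0047). Without unpatterned replicate 3 the log2 fold change of Angptl4 was 0.91 (adjusted p = 0.0040), so it stayed past the threshold at a smaller size.

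Another 4 members rose with less support. Pfkfb3, which makes the allosteric activator of phosphofructokinase, had a log2 fold change of 0.62 ± 0.13 (adjusted p = 0.010), and 0.49 without unpatterned replicate 3 (adjusted p = 0.072). Slc2a1, the glucose transporter GLUT1, had 0.30 ± 0.08 (adjusted p = 0.032), and 0.26 without unpatterned replicate 3 (adjusted p = 0.12). P4ha1, a collagen prolyl hydroxylase subunit, had 0.25 ± 0.06 (adjusted p = 0.023, and 0.079 without plastic replicate 1). Fam162a, a mitochondrial protein that responds to HIF-1 and shares 20.1% of its 31-base words with Wdr5b, had 0.50 ± 0.15 (adjusted p = 0.043, and 0.14 without unpatterned replicate 1). Members that did not pass include well-known ones: Ldha had 624, 587 and 563 CPM on unpatterned gelatin and 531, 519 and 506 CPM on plastic (0.19 ± 0.08, adjusted p = 0.17), Vegfa had 134, 120 and 138 CPM on unpatterned gelatin and 121, 120 and 118 CPM on plastic (0.12 ± 0.07, adjusted p = 0.29), and Ndrg1 had 138, 112 and 127 CPM on unpatterned gelatin and 85.9, 101 and 87.4 CPM on plastic (0.46 ± 0.18, adjusted p = 0.12). The 23 members not called ran from -0.23 for Pfkfb4 to 1.83 for Adm, whose counts were near 0 in 3 of the 6 libraries.

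Among 9 genes that sense oxygen or form the HIF complexes, 1 was called, against 7.89% of all genes tested. Hif1a itself had 159, 171 and 216 CPM on unpatterned gelatin and 126, 127 and 134 CPM on plastic (0.50 ± 0.11, adjusted p = 0.012, and 0.079 at 0.37 without unpatterned replicate 3). Epas1, the related HIF-2 subunit, had a log2 fold change of 0.44 ± 0.26 (adjusted p = 0.35), Vhl, which marks HIF for destruction, 0.13 ± 0.08 (adjusted p = 0.38), and the oxygen sensor Egln1 0.11 ± 0.08 (adjusted p = 0.48). HIF-1 is controlled mostly at the level of its protein, which these libraries do not measure.

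**Figure D2:**
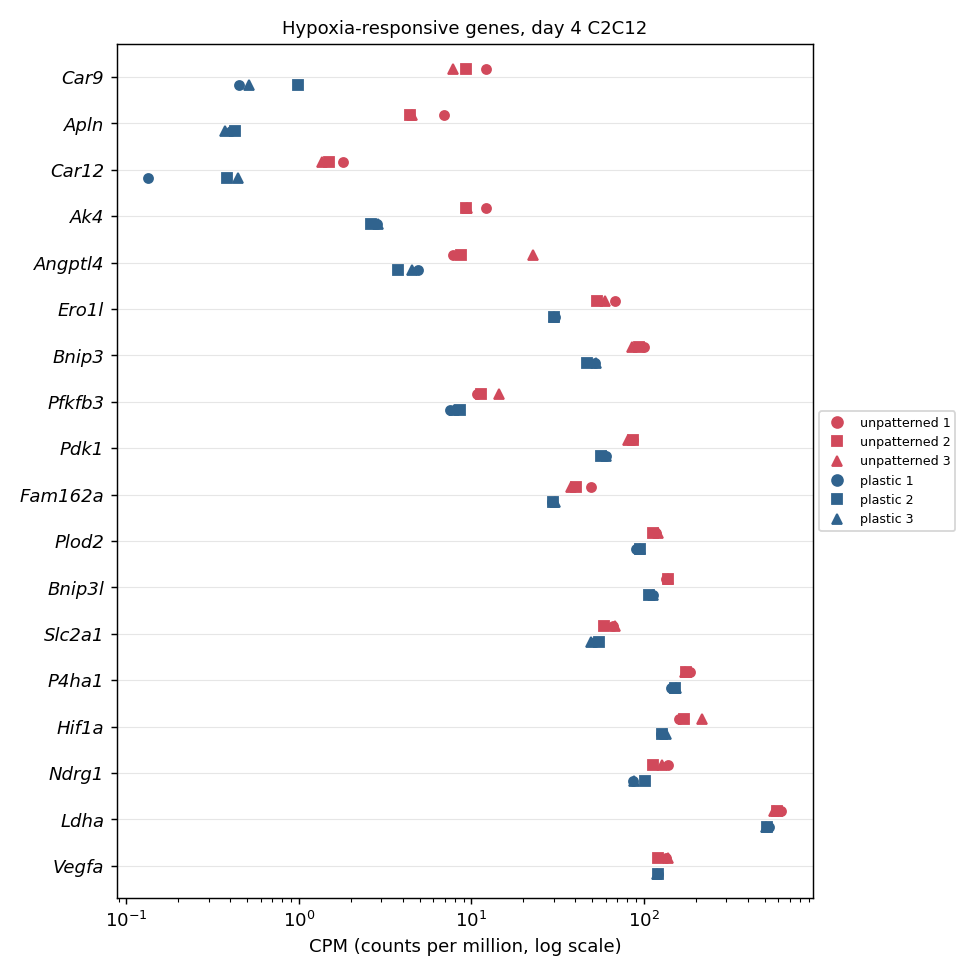
CPM of each day 4 library on a log scale for 14 of the hypoxia-responsive genes that rose, in order of log2 fold change, and for Hif1a, which rose, and Ndrg1, Ldha and Vegfa, which did not pass the test. Red symbols are unpatterned gelatin and blue symbols plastic, with the symbol shape giving the replicate. Car9, Apln and Car12 lie farthest apart, and unpatterned replicate 3 stands alone for Angptl4.

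The promoters of the genes that rose were searched for the hypoxia response core, ACGTG on either strand (CACGT on the other), in the 250 bases before and 50 after the annotated start. Of the 15 genes, 11 had a promoter in the RefSeq table of build GRCm38.p6, and 8 of these held the core: Car9, Bnip3, P4ha1, Slc2a1, Pfkfb3, Ero1l, Fam162a and Ak4. Of the 11, Car9, Ero1l and Ak4 also held the kappa-B consensus, the letters bound by NF-kB, which 5.14% of all genes held. Over all genes with a promoter in the table, 21.8% of 27025 held the hypoxia response core. In 3 of the 8 the core lay within the E-box CACGTG, which other factors also bind and which 8.09% of all genes held. A match is a description of the letters and not a measured binding site. The 120 bases before the start are printed for 6 of them to show where the core, in capitals, stands relative to the start at the right-hand end.
The windows lie on GRCm38.p6 at Car9 chr4:43506906-43507025 (+), Slc2a1 chr4:119108625-119108744 (+), P4ha1 chr10:59323176-59323295 (+), Bnip3 chr7:138909507-138909626 (-), Ero1l chr14:45318573-45318692 (-) and Fam162a chr16:36071562-36071681 (-), with the strand in parentheses and each sequence written 5′ to 3′ along it.
Car9: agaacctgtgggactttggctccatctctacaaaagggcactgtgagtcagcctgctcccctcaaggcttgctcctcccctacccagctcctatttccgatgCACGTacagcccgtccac
Slc2a1: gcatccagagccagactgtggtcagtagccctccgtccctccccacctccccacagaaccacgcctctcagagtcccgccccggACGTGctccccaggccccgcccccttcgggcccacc
P4ha1: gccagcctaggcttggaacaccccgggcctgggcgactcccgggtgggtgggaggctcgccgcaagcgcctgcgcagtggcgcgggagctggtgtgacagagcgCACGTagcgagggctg
Bnip3: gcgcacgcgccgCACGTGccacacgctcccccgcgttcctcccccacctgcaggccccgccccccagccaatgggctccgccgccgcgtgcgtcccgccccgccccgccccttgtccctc
Ero1l: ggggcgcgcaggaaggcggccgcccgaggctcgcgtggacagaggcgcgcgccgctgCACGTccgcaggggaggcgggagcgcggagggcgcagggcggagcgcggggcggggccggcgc
Fam162a: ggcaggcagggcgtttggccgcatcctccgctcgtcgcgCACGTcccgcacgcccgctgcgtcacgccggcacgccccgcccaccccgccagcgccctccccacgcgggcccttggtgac

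Some chemokines, complement genes and other NF-kB targets rose, many of them from low levels. Of 36 chemokines and cytokines listed, 26 were tested and 8 rose (4.02% of all genes tested rose) and none fell. The median log2 fold change was 0.15. With the GC and length trend removed 7 rose, and without a library in turn 6 or 7 rose. Of 20 NF-kB subunits, inhibitors and feedback targets tested, 7 rose and none fell, with a median of 0.15, and 10 rose with the GC and length trend removed.

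Cxcl1, a chemokine that attracts neutrophils, had 4.40, 4.02 and 4.91 CPM on unpatterned gelatin and 0.179, 0.299 and 0.371 CPM on plastic (3.85 ± 0.39, adjusted p = 1.6e-05). Cxcl5, which acts through the same receptor, had 13.5, 11.3 and 12.4 CPM on unpatterned gelatin and 1.83, 2.01 and 1.70 CPM on plastic (2.76 ± 0.27, adjusted p = 8.7e-06). Cxcl16, a chemokine made as a membrane protein, had 2.60, 1.75 and 2.22 CPM on unpatterned gelatin and 0.447, 0.384 and 0.442 CPM on plastic (2.34 ± 0.26, adjusted p = 4.7e-05). In all 3 the groups are far apart.

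Chemokines of the CC class, which attract monocytes or eosinophils, rose as well. Ccl2 had 3.66, 4.51 and 7.71 CPM on unpatterned gelatin and 0.403, 0.598 and 0.513 CPM on plastic (3.38 ± 0.33, adjusted p = 8.7e-06). Ccl11 had 5.56, 4.06 and 4.81 CPM on unpatterned gelatin and 0.805, 0.982 and 1.17 CPM on plastic (2.24 ± 0.34, adjusted p = 0.0014). Ccl7 had 6.12, 5.81 and 5.66 CPM on unpatterned gelatin and 1.21, 1.54 and 1.72 CPM on plastic (1.94 ± 0.21, adjusted p = 3.1e-05). Ccl8 was the weakest of them, with 3.75, 3.01 and 2.93 CPM on unpatterned gelatin and 1.34, 1.79 and 1.61 CPM on plastic (1.02 ± 0.30, adjusted p = 0.044, and 0.13 without plastic replicate 1). Other chemokines did not pass. Cxcl12 had 37.5, 39.3 and 34.3 CPM on unpatterned gelatin and 34.0, 41.1 and 34.0 CPM on plastic (0.03 ± 0.32, adjusted p = 0.98). Ccl5 had 0.324, 0.244 and 0.102 CPM on unpatterned gelatin and 0.313, 0.427 and 0.336 CPM on plastic (-0.71 ± 0.61, adjusted p = 0.53).

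The cytokine Il6 rested on a single library. It had 0.788, 1.14 and 3.96 CPM on unpatterned gelatin and 0.358, 0.469 and 0.566 CPM on plastic (2.05 ± 0.50, adjusted p = 0.020), and without unpatterned replicate 3 the log2 fold change was 1.01 (adjusted p = 0.21). The cytokines Csf1, with 80.2, 71.7 and 103 CPM on unpatterned gelatin and 104, 109 and 113 CPM on plastic (-0.35 ± 0.13, adjusted p = 0.093), and Lif, with a log2 fold change of 0.07 ± 0.16 (adjusted p = 0.86), did not pass.

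Nos2, the inducible nitric oxide synthase, was the gene nearest to present or absent. It had 3.10, 1.3 and 1.12 CPM on unpatterned gelatin, 132 counts in all, and 0 counts in each of the 3 plastic libraries (adjusted p = 1.6e-04). Set against a floor of 3 counts over the plastic group, or 0.0293 CPM, it was at least 59.6-fold higher on unpatterned gelatin. C3, the central complement protein, had 3.29, 2.56 and 4.88 CPM on unpatterned gelatin and 0.0447, 0 and 0.0177 CPM on plastic, which is 277 counts against 2 and a ratio of 188 with a 95% interval of 51.4 to 1557 (adjusted p = 4.2e-06). These intervals cover counting error only.

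In the list of acute phase and complement genes 4 of 12 tested rose (4.02% of all genes tested rose) and none fell, with a median of 0.64. The counts were the same with the GC and length trend removed and without each library in turn. Besides C3 the 4 are Saa3, Serpina3g and C1s1. Saa3, a serum amyloid protein, had 42 counts on unpatterned gelatin and 4 on plastic, a ratio of 14.2 (95% interval 5.16 to 54.6, adjusted p = 0.0079). Serpina3g, a serine protease inhibitor of a family with near-identical copies, had 31 counts on unpatterned gelatin and 3 on plastic, a ratio of 14.0 (4.37 to 71.6, adjusted p = 0.0054). C1s1, a protease of the first complement complex, had 8.25, 7.84 and 10.5 CPM on unpatterned gelatin and 1.48, 2.22 and 1.66 CPM on plastic (2.32 ± 0.36, adjusted p = 0.0016). It shares 33.5% of its 31-base words with C1s2, which had at most 0.366 CPM on unpatterned gelatin and 0.427 CPM on plastic.

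Among NF-kB targets with firm levels, Vcam1, an adhesion molecule that myoblasts also use in fusion, had 78.0, 80.7 and 78.9 CPM on unpatterned gelatin and 30.3, 37.3 and 32.6 CPM on plastic (1.25 ± 0.19, adjusted p = 0.0014). Tnfaip3, the deubiquitinase A20 that restrains NF-kB, had 34.2, 33.6 and 40.03 CPM on unpatterned gelatin and 23.3, 21.1 and 24.3 CPM on plastic (0.65 ± 0.08, adjusted p = 1.6e-04). Both calls held without each library in turn. Nfkbia, the inhibitor IkB alpha, rose by 0.44 ± 0.11 (adjusted p = 0.021, and 0.093 without unpatterned replicate 3), and Nfkbiz by 0.49 ± 0.12 (adjusted p = 0.023, and 0.14 without unpatterned replicate 3).

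The subunits of NF-kB itself were not called. Nfkb1 had a log2 fold change of -0.05 ± 0.07 (adjusted p = 0.75), and Relb 0.13 ± 0.09 (adjusted p = 0.41). Rela had 51.4, 49.4 and 52.2 CPM on unpatterned gelatin and 62.5, 64.0 and 60.1 CPM on plastic (-0.29 ± 0.10, adjusted p = 0.092). Of 27 interferon-stimulated genes tested, 0 passed in edgeR, and DESeq2 called 1, which was lower. By an unadjusted p under 0.05, which 23.1% of all genes met, 3 passed (1 higher, 2 lower). Rsad2, an antiviral enzyme, had 0.371, 0.325 and 0.239 CPM on unpatterned gelatin and 0.134, 0.171 and 0.159 CPM on plastic (0.95 ± 0.37, adjusted p = 0.18). The 8 leukocyte markers, whose level is given above, included Ptprc, the leukocyte marker CD45, at 1.21, 0.975 and 0.750 CPM on unpatterned gelatin and 0.939, 1.24 and 1.13 CPM on plastic (-0.20 ± 0.28, adjusted p = 0.74).

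**Figure D3:**
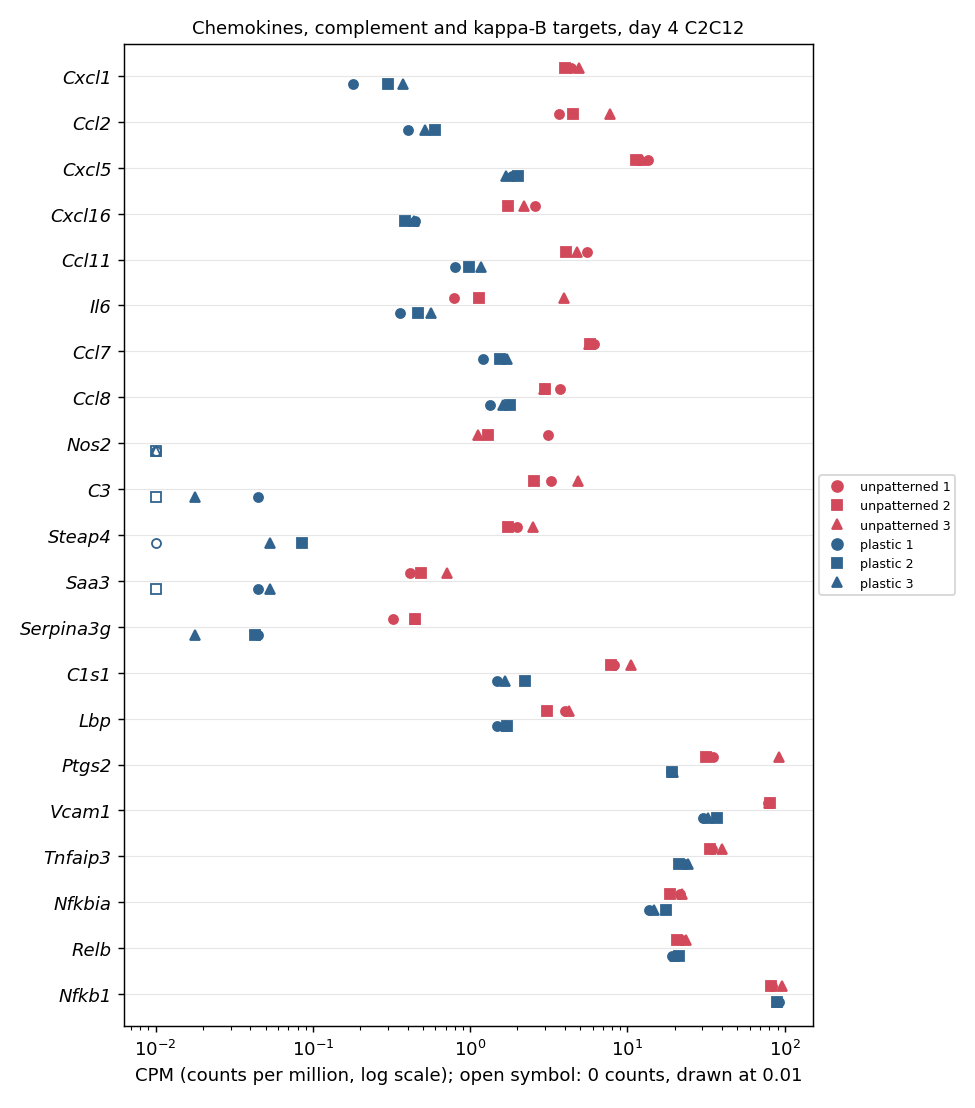
CPM of each day 4 library on a log scale for chemokines, complement genes and NF-kB targets and subunits, red for unpatterned gelatin and blue for plastic, with symbol shape giving the replicate. Open symbols are libraries with 0 counts, drawn at 0.01. Nos2 has 0 counts in all 3 plastic libraries, and for the chemokine genes shown every unpatterned value lies above every plastic value.

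Of the 8 chemokine genes that rose, 3 had a RefSeq promoter in the table, Cxcl1, Ccl8 and Il6. Cxcl1 and Il6 held the kappa-B consensus on either strand, which 5.14% of all 27025 genes held, and Cxcl1 also held the hypoxia response core. The windows, printed to show the match in capitals close to the start of both genes, cover 120 bases before the start on GRCm38.p6 at Cxcl1 chr5:90891125-90891244 (+) and Il6 chr5:30012994-30013113 (+), 5′ to 3′.
Cxcl1: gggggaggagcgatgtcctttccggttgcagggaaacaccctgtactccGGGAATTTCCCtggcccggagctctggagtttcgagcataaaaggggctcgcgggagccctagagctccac
Il6: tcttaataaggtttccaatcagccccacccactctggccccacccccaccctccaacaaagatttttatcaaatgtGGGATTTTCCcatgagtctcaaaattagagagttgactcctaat

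Immediate early genes, which are switched on within minutes by growth factors, stress or handling, were often called higher, and many of the fold changes were smaller without a single culture. Of 29 tested, 10 rose and 1 fell (4.02% and 3.87% of all genes tested), with a median log2 fold change of 0.33. With the GC and length trend removed 10 rose. Unpatterned replicate 3 was the highest of the 6 libraries for all 10 that rose. Without that library no member was called higher.

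Fos had 8.39, 8.21 and 22.2 CPM on unpatterned gelatin and 5.32, 6.49 and 5.43 CPM on plastic (1.18 ± 0.28, adjusted p = 0.017), and 0.54 without unpatterned replicate 3 (adjusted p = 0.10). Egr2 had 14.5, 12.8 and 46.5 CPM on unpatterned gelatin and 10.6, 12.8 and 10.1 CPM on plastic (1.15 ± 0.32, adjusted p = 0.034), and 0.30 without that library (adjusted p = 0.28). Fosb had 1.99, 2.11 and 9.34 CPM on unpatterned gelatin and 1.34, 1.58 and 1.68 CPM on plastic (1.55 ± 0.43, adjusted p = 0.035), and 0.42 without it (adjusted p = 0.48). In each, the first and second unpatterned libraries sit at or a little above the top of the plastic range and the third far above it.

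Atf3, a stress factor, behaved alike (0.86 ± 0.25, adjusted p = 0.045, and 0.28 without unpatterned replicate 3, adjusted p = 0.40), as did the growth factor target Klf10 (0.72 ± 0.19, adjusted p = 0.027, and 0.37 without it, adjusted p = 0.16). Dusp6, the phosphatase that turns off ERK, had 26.0, 26.2 and 44 CPM on unpatterned gelatin and 19.2, 20.9 and 20.4 CPM on plastic (0.67 ± 0.16, adjusted p = 0.019, and 0.38 without that library, adjusted p = 0.11). Ier3 rose by 0.54 (adjusted p = 0.021, and 0.33 without unpatterned replicate 3, adjusted p = 0.12), Dusp4 by 0.54 (adjusted p = 0.042, and 0.37 without it, adjusted p = 0.22) and Klf6 by 0.37 (adjusted p = 0.013, and 0.25 without it, adjusted p = 0.070). Dusp2 kept its size: it rose by 0.75 (adjusted p = 0.015), and was at 0.75 without that library (adjusted p = 0.063). Klf2, a factor that responds to flow in endothelium, fell by 0.53 (adjusted p = 0.025, and 0.14 without unpatterned replicate 2). Klf2 did not pass with the GC and length trend removed. Egr1, at 68.4, 62.2 and 141 CPM on unpatterned gelatin and 65.4, 69.6 and 68.1 CPM on plastic (0.42 ± 0.27, adjusted p = 0.38), and Jun, at 142, 140 and 135 CPM on unpatterned gelatin and 150, 151 and 143 CPM on plastic (-0.09 ± 0.07, adjusted p = 0.49), were not called.

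The same library stood high outside this list. Ptgs2, the inducible cyclooxygenase, had 34.8, 31.7 and 92.3 CPM on unpatterned gelatin and 19, 19.2 and 19.6 CPM on plastic (1.46 ± 0.30, adjusted p = 0.0094), and is also 1 of the 7 in the NF-kB list. Its call held without each library in turn, with a log2 fold change of 0.79 without unpatterned replicate 3 (adjusted p = 0.042). Errfi1, a feedback inhibitor of the EGF receptor, had 58.4, 60.9 and 210 CPM on unpatterned gelatin and 40.1, 42.3 and 41.1 CPM on plastic (1.42 ± 0.31, adjusted p = 0.012), with 0.54 without unpatterned replicate 3 (adjusted p = 0.0043) and an adjusted p of 0.051 without plastic replicate 2. Ccn2, the YAP target CTGF, had 82.4, 76.8 and 248 CPM on unpatterned gelatin and 67.3, 57.1 and 73.9 CPM on plastic and fell just short (1.04 ± 0.32, adjusted p = 0.050). Of the 597 genes called higher, unpatterned replicate 3 was the highest gelatin library in 213, replicate 2 in 310 and replicate 1 in 74, and in 11 replicate 3 was at least 2 times both others. What set this culture apart was not tested.

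**Figure D4:**
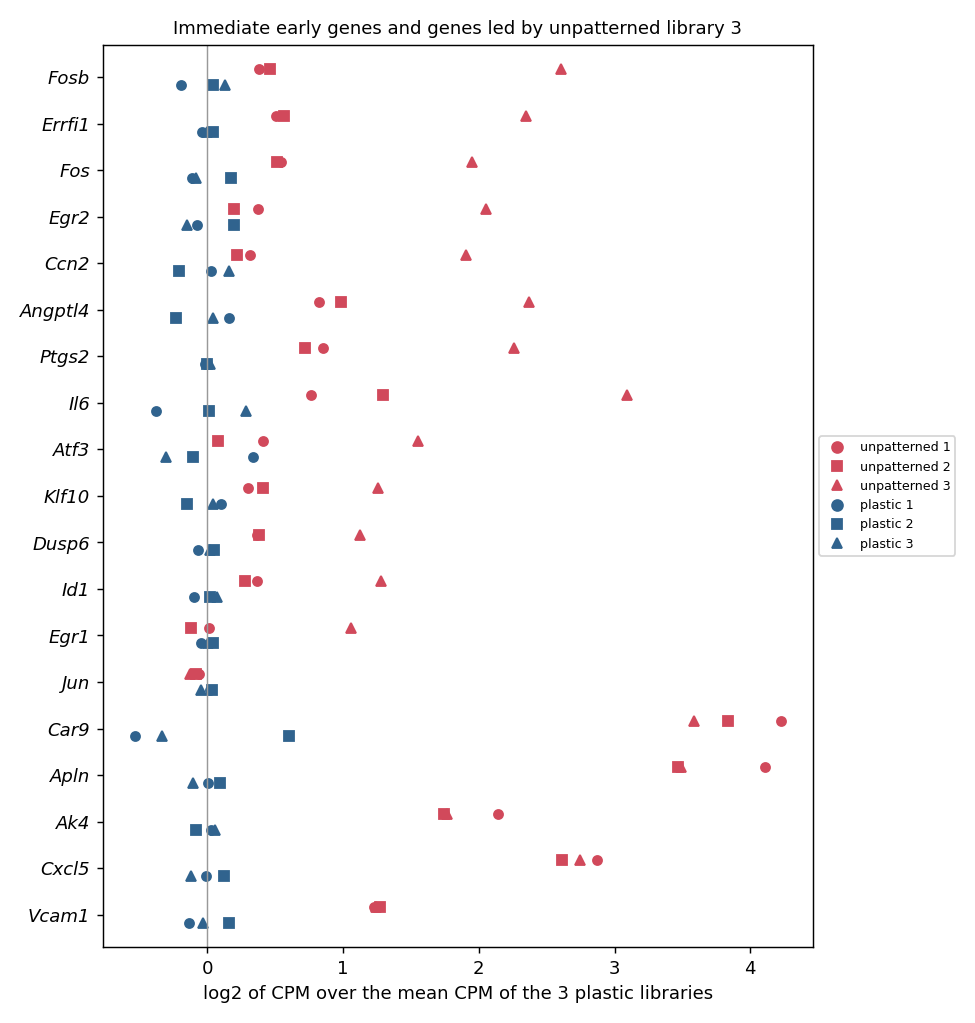
Log2 of the CPM of each day 4 library over the mean CPM of the 3 plastic libraries, red for unpatterned gelatin and blue for plastic, with symbol shape giving the replicate. From Fosb to Egr1 the triangle of unpatterned replicate 3 lies to the right of the other 5 libraries, while for Car9, Apln, Ak4, Cxcl5 and Vcam1 the 3 unpatterned libraries lie together.

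Genes of carbohydrate metabolism that were called all rose, by modest amounts. Of 36 genes of glycolysis, glycogen and lactate handling, 8 rose and 0 fell (4.02% and 3.87% of all genes tested). In 31 the log2 fold change was above 0, against 7082 of all 14844 genes tested. The median was 0.15, and 10 were higher after the GC and length trend was removed. Leaving out a library gave 2 to 6, lowest without unpatterned replicate 2. Pgk1, phosphoglycerate kinase, had 706, 695 and 664 CPM on unpatterned gelatin and 510, 511 and 518 CPM on plastic (0.42 ± 0.07, adjusted p = 0.0042), although 54.7% of its 31-base words recur in pseudogene copies. Slc16a1, the lactate transporter MCT1, had 130, 146 and 138 CPM on unpatterned gelatin and 113, 98.9 and 107 CPM on plastic (0.38 ± 0.07, adjusted p = 0.0072, and 0.12 with the GC and length trend removed). Both calls held without each library in turn.

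The calls of that list given next each failed without at least 1 library. Gpd1, the glycerol phosphate dehydrogenase, had 11, 12.8 and 11.9 CPM on unpatterned gelatin and 6.48, 8.92 and 8.62 CPM on plastic (0.57 ± 0.15, adjusted p = 0.026, and 0.11 without unpatterned replicate 2). Aldoc, an aldolase, had a log2 fold change of 1.26 ± 0.33 from low levels (adjusted p = 0.028, and 0.10 without plastic replicate 1). The glycogen branching enzyme Gbe1 (0.57 ± 0.13, adjusted p = 0.017, and 0.079 without plastic replicate 2) and the muscle phosphorylase kinase subunit Phka1 (0.33 ± 0.07, adjusted p = 0.013, and 0.060 without plastic replicate 2) are enzymes of glycogen turnover. Pgam1 (0.25 ± 0.07, adjusted p = 0.029, and 0.097 without unpatterned replicate 2) shares 42.1% of its words with a pseudogene.

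Few mitochondrial genes passed the count test. The paper reports mitochondrial and respiration categories as enriched among the genes that differed between gelatin and plastic in its own calls. That enrichment was not tested here. Of 78 nuclear genes of oxidative phosphorylation 1 rose, Ndufs1, and 0 fell, with a median of 0.01. Of 13 genes of the mitochondrial genome 0 passed in edgeR and DESeq2 called 0. In edgeR 1 stood at p under 0.05 before adjustment, which 23.1% of all genes met. The count of nuclear genes moved with the fit. With limma on log2 TPM plus 1, 14 were higher and 0 lower, against 950 and 62 of all 14844 genes tested. The edgeR fit of only the 6 libraries compared called 8 higher and 8 lower, against 1601 and 1622 over all genes in that fit. That 6-library fit called 1 gene of the mitochondrial genome, which was higher. Ndufs1, a complex I subunit, had 275, 294 and 268 CPM on unpatterned gelatin and 233, 220 and 240 CPM on plastic (0.27 ± 0.08, adjusted p = 0.045, and 0.16 without unpatterned replicate 2). In the citric acid cycle Idh3a rose by 0.37 ± 0.09 (adjusted p = 0.016, and 0.071 without unpatterned replicate 2) and Dlat by 0.26 ± 0.06 (adjusted p = 0.018, and 0.084 without unpatterned replicate 2), and with Pdk1 they are the 3 of 28 tested that were called. Acadl was the only one of 27 genes of fatty acid oxidation called (0.24 ± 0.07, adjusted p = 0.030, and 0.086 without unpatterned replicate 2). With the GC and length trend removed, neither Ndufs1 nor Acadl passed, and 1 of those 3 citric acid cycle genes did. Of all genes tested 7.89% were called in the count test. Ckmt2, the mitochondrial creatine kinase of muscle, had 8.20, 8.98 and 8.15 CPM on unpatterned gelatin and 4.07, 5.08 and 4.09 CPM on plastic (0.94 ± 0.17, adjusted p = 0.0047). The cytosolic Ckm had 594, 562 and 604 CPM on unpatterned gelatin and 589, 611 and 609 CPM on plastic (-0.04 ± 0.13, adjusted p = 0.90).

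The contractile genes given in this paragraph did not pass the main test, while those of the thick filament and Z disc that passed follow below. The embryonic myosin Myh3 had 5701, 4906 and 5029 CPM on unpatterned gelatin and 5484, 5413 and 5546 CPM on plastic (-0.07 ± 0.15, adjusted p = 0.83). The skeletal actin Acta1 had 3872, 3674 and 3613 CPM on unpatterned gelatin and 3720, 3575 and 3705 CPM on plastic (0.02 ± 0.14, adjusted p = 0.95). The groups overlap in both. Myog, which drives terminal differentiation, had a log2 fold change of 0.04 ± 0.13 (adjusted p = 0.90), Myod1 -0.16 ± 0.11 (adjusted p = 0.42), and the fusion protein Mymk -0.27 ± 0.14 (adjusted p = 0.27). Of 23 thin filament genes 0 passed in edgeR and DESeq2 called 0. In edgeR 6 stood at p under 0.05 before adjustment (1 higher, 5 lower), which 23.1% of all genes met. The fits of only the 6 libraries compared and of the 9 libraries of day 4 each called 3 higher and 5 lower. Over all genes these fits called 1601 higher and 1622 lower, and 1665 higher and 1582 lower. The median of the thin filament genes was -0.17. Titin (Ttn) had 16430, 14100 and 16520 CPM on unpatterned gelatin and 20460, 18730 and 21530 CPM on plastic, with no overlap between groups, and did not pass (-0.37 ± 0.26, adjusted p = 0.43).

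Of 32 thick filament and M band genes 5 fell and 2 rose (3.87% and 4.02% of all genes tested), with a median of -0.07. The genes that fell include slow and cardiac forms. Myl2, the slow regulatory light chain, had 60.5, 65.2 and 63.4 CPM on unpatterned gelatin and 126, 90.5 and 130 CPM on plastic (-0.88 ± 0.19, adjusted p = 0.011). Myh6, the alpha cardiac myosin, had 35.1, 30.5 and 30.3 CPM on unpatterned gelatin and 49.9, 54.4 and 51.2 CPM on plastic (-0.70 ± 0.15, adjusted p = 0.012). Myh7b, a slow-tonic myosin, had 32.9, 29.1 and 24.8 CPM on unpatterned gelatin and 41.3, 54.0 and 44.7 CPM on plastic (-0.69 ± 0.14, adjusted p = 0.010). These 3 also passed with the GC and length trend removed, and all 3 failed without unpatterned replicate 3 (adjusted p = 0.050, 0.066 and 0.069).

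The main slow myosin Myh7 did not pass, with 648, 578 and 584 CPM on unpatterned gelatin and 704, 742 and 733 CPM on plastic (-0.27 ± 0.12, adjusted p = 0.17). Myom3, an M band protein, fell by 0.35 (adjusted p = 0.046, and 0.18 without plastic replicate 2) and did not pass with the GC and length trend removed (adjusted p = 0.13). The 2 that rose, the slow myosin binding protein Mybpc1 (0.35 ± 0.10, adjusted p = 0.037) and the scaffold Fhl1 (0.33 ± 0.10, adjusted p = 0.049), reached 0.12 without unpatterned replicate 2 and 0.21 without plastic replicate 2. Neither Mybpc1 nor Fhl1 passed with the GC and length trend removed.

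At the Z disc 3 of 30 genes fell and 1 rose (3.87% and 4.02% of all genes tested). Igfn1, a titin-like protein, had 115, 106 and 112 CPM on unpatterned gelatin and 182, 237 and 187 CPM on plastic (-0.86 ± 0.17, adjusted p = 0.0079), a call that held without each library in turn. Synpo2l, an actin-bundling protein of the Z disc, had 366, 346 and 341 CPM on unpatterned gelatin and 575, 482 and 548 CPM on plastic (-0.61 ± 0.13, adjusted p = 0.010, and 0.051 without unpatterned replicate 3). Bag3, a chaperone partner that clears damaged filamin, fell by 0.49 ± 0.13 (adjusted p = 0.031, and 0.14 without unpatterned replicate 3), and Cmya5 rose by 0.73 ± 0.22 (adjusted p = 0.043, and 0.17 without unpatterned replicate 3). Bag3 did not pass with the GC and length trend removed.

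In calcium handling 2 of 26 genes rose, against 4.02% of all genes tested, and leaving out a library gave 0 or 1. Atp2a2, the slow calcium pump SERCA2, had 2321, 2457 and 2259 CPM on unpatterned gelatin and 1734, 1953 and 1808 CPM on plastic (0.36 ± 0.10, adjusted p = 0.033). Asph, the junctin gene, rose by 0.26 ± 0.07 (adjusted p = 0.030). Neither passed with the GC and length trend removed, and their adjusted p reached 0.12 without unpatterned replicate 2 and 0.13 without plastic replicate 2. The release channel Ryr1 had 1013, 927 and 902 CPM on unpatterned gelatin and 1328, 1332 and 1289 CPM on plastic (-0.47 ± 0.17, adjusted p = 0.083).

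At the neuromuscular junction, Ache, the enzyme that breaks down acetylcholine, had 12.6, 14.3 and 9.72 CPM on unpatterned gelatin and 5.59, 4.35 and 7.00 CPM on plastic (1.09 ± 0.18, adjusted p = 0.0030), and the call held without each library in turn. Lrp4, the agrin receptor, had 390, 376 and 374 CPM on unpatterned gelatin and 528, 537 and 530 CPM on plastic (-0.49 ± 0.12, adjusted p = 0.019, and 0.079 without unpatterned replicate 3). Its ligand Agrn had 36.0, 34.7 and 31.3 CPM on unpatterned gelatin and 46.6, 49.4 and 46.8 CPM on plastic (-0.48 ± 0.14, adjusted p = 0.041, and 0.17 without unpatterned replicate 3). These are the 3 of 13 genes of the list that were called, against 7.89% of all genes tested.

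Among 28 myogenic regulators 2 rose and 1 fell (4.02% and 3.87% of all genes tested). Myf6, the late myogenic factor MRF4, had 5.79, 5.89 and 5.39 CPM on unpatterned gelatin and 2.82, 3.84 and 3.79 CPM on plastic (0.70 ± 0.18, adjusted p = 0.027, and 0.10 without plastic replicate 1). Mef2d fell by 0.63 ± 0.18 (adjusted p = 0.043, and 0.17 without unpatterned replicate 3), and Id1, an inhibitor of myogenic factors, rose by 0.72 ± 0.20 (adjusted p = 0.039, and 0.28 without unpatterned replicate 3). Mef2d did not pass with the GC and length trend removed. Of 40 genes of S phase and mitosis 0 passed in edgeR, and DESeq2 called 1, which was lower. In edgeR 3 stood at p under 0.05 before adjustment, all lower, which 23.1% of all genes met in either direction. The fit of only the 6 libraries compared called 7 lower, that of the 9 libraries of day 4 called 4 lower, and neither called any higher. Over all genes these fits called 1622 and 1582 lower. The median of the S phase and mitosis genes was -0.13. Mki67 had 75.2, 74.0 and 84.4 CPM on unpatterned gelatin and 90.1, 91.0 and 96.5 CPM on plastic (-0.25 ± 0.33, adjusted p = 0.72).

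The matrix and adhesion genes that were called mostly fell. Of 36 integrin and focal adhesion genes 6 fell and 0 rose (3.87% of all genes tested fell), with a median of -0.11, and with the GC and length trend removed 5 fell and 3 rose. Leaving out a library gave 1 to 6, lowest without unpatterned replicate 3. Zyx, zyxin, which gathers at adhesions under tension, had 211, 165 and 163 CPM on unpatterned gelatin and 348, 367 and 366 CPM on plastic (-1.003 ± 0.22, adjusted p = 0.012, and 0.064 without unpatterned replicate 2). Itga3, a laminin receptor subunit, had 64.3, 58.3 and 58.4 CPM on unpatterned gelatin and 94.5, 92.4 and 89.2 CPM on plastic (-0.61 ± 0.13, adjusted p = 0.011, and 0.057 without unpatterned replicate 2). Itga10, a collagen receptor subunit, had 11.6, 8.65 and 8.76 CPM on unpatterned gelatin and 16.5, 18.4 and 15.4 CPM on plastic (-0.80 ± 0.16, adjusted p = 0.0098, and 0.061 without unpatterned replicate 2).

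Lims2, the adhesion adaptor PINCH2, had 8.80, 7.47 and 8.59 CPM on unpatterned gelatin and 12.8, 14.2 and 12.5 CPM on plastic (-0.66 ± 0.13, adjusted p = 0.0072), and was the member whose call held without each library. Tns1, tensin, fell by 0.56 ± 0.14 (adjusted p = 0.020, and 0.085 without unpatterned replicate 2), and Ptk2b, the kinase PYK2, by 0.47 ± 0.10 (adjusted p = 0.011, and 0.070 without unpatterned replicate 3). Of 35 targets of serum response factor and other contractile genes 5 fell and 1 rose (3.87% and 4.02% of all genes tested). With the GC and length trend removed 2 fell and 1 rose. Leaving out a library gave 1 to 3 that fell. Smtn, smoothelin, had 88.3, 76.5 and 78.7 CPM on unpatterned gelatin and 112, 125 and 111 CPM on plastic (-0.52 ± 0.09, adjusted p = 0.0047), and its call held without each library in turn. Of 26 YAP and TEAD targets 1 rose, Igfbp3 (0.57 ± 0.17, adjusted p = 0.044, and 0.15 without plastic replicate 1), and 1 fell, Ccdc80 (-0.43 ± 0.10, adjusted p = 0.016, and 0.082 without plastic replicate 2).

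Prelp, a leucine-rich proteoglycan that anchors basement membranes, fell most firmly of the matrix genes, with 16.4, 15.9 and 17.9 CPM on unpatterned gelatin and 38.9, 45.4 and 47.2 CPM on plastic (-1.39 ± 0.22, adjusted p = 0.0026). Hspg2, the basement membrane proteoglycan perlecan, had 1014, 775 and 708 CPM on unpatterned gelatin and 1941, 1907 and 2046 CPM on plastic (-1.24 ± 0.35, adjusted p = 0.040, and 0.15 without unpatterned replicate 3), and did not pass with the GC and length trend removed (-0.86, adjusted p = 0.084). Nid2, nidogen, had 216, 207 and 206 CPM on unpatterned gelatin and 329, 357 and 325 CPM on plastic (-0.68 ± 0.17, adjusted p = 0.021, and 0.091 without plastic replicate 2). Postn, periostin, went the other way, with 244, 235 and 332 CPM on unpatterned gelatin and 129, 173 and 153 CPM on plastic (0.83 ± 0.18, adjusted p = 0.011, and 0.070 without unpatterned replicate 3). Together these are 3 lower and 1 higher of 30 matrix genes tested (3.87% and 4.02% of all genes tested), with a median of -0.16.

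Of 24 collagen genes 3 fell and 0 rose (3.87% and 4.02% of all genes tested), with a median of -0.23. With the GC and length trend removed 1 fell. Col12a1 had 363, 338 and 402 CPM on unpatterned gelatin and 592, 682 and 610 CPM on plastic (-0.77 ± 0.21, adjusted p = 0.031, and 0.13 without unpatterned replicate 2). Col6a3 (-0.95 ± 0.27, adjusted p = 0.036, and 0.22 without plastic replicate 2) and Col4a2 (-0.51 ± 0.14, adjusted p = 0.035, and 0.17 without plastic replicate 2) were the others. Col1a1, the main fibrillar collagen, overlapped between groups, at 180, 119 and 109 CPM on unpatterned gelatin and 171, 315 and 229 CPM on plastic (-0.81 ± 0.32, adjusted p = 0.12). Of the 21 genes that mature collagen, Loxl2, a lysyl oxidase, rose beside P4ha1 and Plod2, with 23.9, 21.8 and 21.8 CPM on unpatterned gelatin and 12.9, 11.1 and 13.0 CPM on plastic (0.86 ± 0.12, adjusted p = 9.6e-04). Of its 31-base words 46.3% recur in other genes, first in Gm21451, so its value is uncertain to that extent. The procollagen protease Bmp1 fell by 0.39 ± 0.10 (adjusted p = 0.027, and 0.16 without plastic replicate 2). Bmp1 did not pass with the GC and length trend removed.

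Of 33 Notch and Wnt pathway genes 6 fell and 0 rose (3.87% of all genes tested fell), with a median of -0.19. With the GC and length trend removed 3 fell and 1 rose, and 0 to 3 fell when a library was left out, 0 of them without unpatterned replicate 2. The 6 that fell include the R-spondin receptors Lgr5 and Lgr6. Lgr5 had 1.53, 1.46 and 1.98 CPM on unpatterned gelatin and 4.92, 4.95 and 5.17 CPM on plastic (-1.59 ± 0.39, adjusted p = 0.020). Its call was lost without each of the 6 libraries in turn, with the highest adjusted p, 0.095, without unpatterned replicate 2. Lgr6 had 13.9, 13.7 and 15.4 CPM on unpatterned gelatin and 23.5, 21.8 and 24.4 CPM on plastic (-0.70 ± 0.15, adjusted p = 0.010, and 0.057 without unpatterned replicate 2). Tcf7, a nuclear effector of Wnt, had 21, 18.7 and 18.7 CPM on unpatterned gelatin and 30.7, 33.3 and 31.6 CPM on plastic (-0.71 ± 0.17, adjusted p = 0.016, and 0.077 without unpatterned replicate 2). Sfrp2, a secreted Wnt modulator, had 5.65, 5.77 and 5.66 CPM on unpatterned gelatin and 11.6, 13.8 and 12.3 CPM on plastic (-1.14 ± 0.32, adjusted p = 0.035, and 0.12 without plastic replicate 2). Nkd2 (-0.92, adjusted p = 0.040, and 0.17 without unpatterned replicate 2) and Fzd2 (-0.31, adjusted p = 0.036, and 0.15 without unpatterned replicate 3) complete the 6.

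In the TGF-beta family the ligands Tgfb1, with 49.9, 39.0 and 41.4 CPM on unpatterned gelatin and 71.9, 74.5 and 67.8 CPM on plastic (-0.72 ± 0.17, adjusted p = 0.017, and 0.088 without unpatterned replicate 2), Tgfb3 (-0.30 ± 0.08, adjusted p = 0.035, and 0.16 without plastic replicate 2) and Gdf11 (-0.31 ± 0.08, adjusted p = 0.024, and 0.12 without unpatterned replicate 3) fell. None of the 3 passed with the GC and length trend removed. Skil, a repressor of SMAD signalling, rose by 0.43 ± 0.12 (adjusted p = 0.040, and 0.22 without unpatterned replicate 3). In all 3 genes of 27 tested rose and 3 fell (4.02% and 3.87% of all genes tested).

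Of 34 genes of the unfolded protein and amino acid responses 31 had a log2 fold change above 0, against 7082 of all 14844 genes tested. Of the 34, 3 rose and 1 fell (4.02% and 3.87% of all genes tested). With the GC and length trend removed 7 rose. Trib3, a target of ATF4, had 8.85, 7.11 and 9.51 CPM on unpatterned gelatin and 3.76, 3.46 and 3.71 CPM on plastic (1.22 ± 0.25, adjusted p = 0.0099), a call that held without each library in turn. Asns, asparagine synthetase, rose by 0.40 ± 0.10 (adjusted p = 0.023, and 0.11 without plastic replicate 2) and Cth by 1.21 ± 0.36 (adjusted p = 0.049, and 0.20 without unpatterned replicate 3), and Atf5 fell by 0.44 ± 0.10 (adjusted p = 0.015, and 0.075 without unpatterned replicate 3). Atf5 did not pass with the GC and length trend removed. Atf4 itself had a log2 fold change of 0.07 ± 0.08 (adjusted p = 0.68) and the stress factor Ddit3 0.11 ± 0.10 (adjusted p = 0.56). Of 23 angiogenic and vascular genes 5 rose and 1 fell (4.02% and 3.87% of all genes tested). Those that rose were Apln, Angptl4, Nos2, Edn1 (0.78 ± 0.20, adjusted p = 0.023, and 0.13 without unpatterned replicate 3) and Pdgfb (0.41 ± 0.13, adjusted p = 0.049, and 0.23 without unpatterned replicate 3). The gene that fell was Vegfb (-0.43 ± 0.11, adjusted p = 0.023, and 0.12 without unpatterned replicate 3). Vegfb did not pass with the GC and length trend removed.

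**Figure D5:**
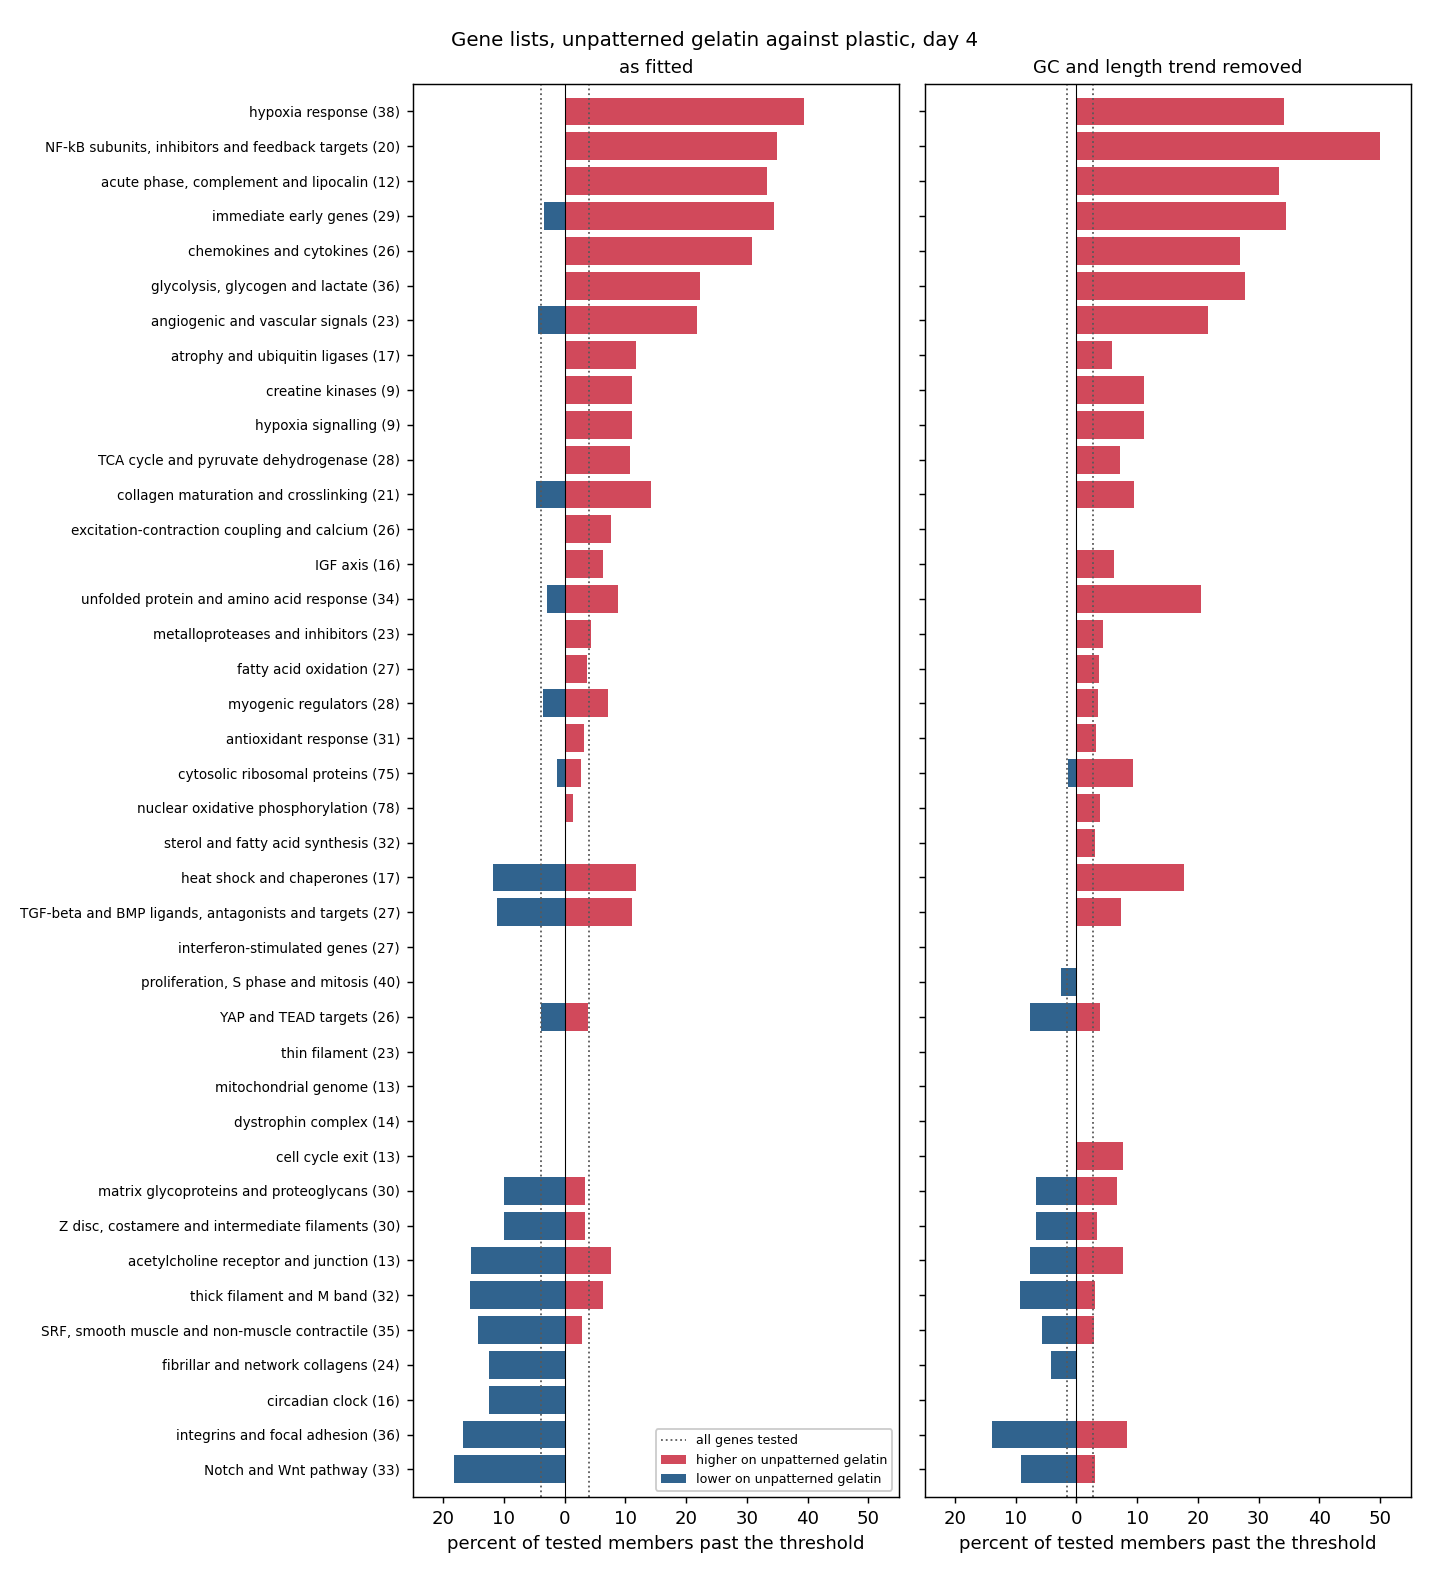
Percent of the tested members of each of 40 gene lists (number tested in parentheses) past an adjusted p of 0.05, higher to the right in red and lower to the left in blue on unpatterned gelatin, in the count test (left panel) and after the GC and length trend of each library was removed (right panel). Dotted lines give the percent of all genes tested. The hypoxia list holds 15 higher of 38 and 13 after the trend was removed, and the Notch and Wnt list 6 lower of 33 and 3 after it was removed.

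Among single genes past the threshold, Nefl, the light neurofilament, had the steepest rise of those averaging 1 or more in log2 CPM, at 2.78, 2.44 and 2.11 CPM on unpatterned gelatin and 0.134, 0.213 and 0.124 CPM on plastic (4.00 ± 0.26, adjusted p = 5.3e-08). It shares 32.2% of its 31-base words with Nefm, which had 1.11, 0.772 and 0.886 CPM on unpatterned gelatin and 1.16, 0.726 and 1.13 CPM on plastic, and in day 0 cells Nefl had 121, 114 and 114 CPM. Kcnk13, a leak potassium channel, had 6.76, 7.43 and 6.96 CPM on unpatterned gelatin and 2.06, 2.65 and 2.35 CPM on plastic (1.58 ± 0.27, adjusted p = 0.0043). Kng2, a kininogen, had 3.29, 2.40 and 3.75 CPM on unpatterned gelatin and 0.805, 0.469 and 0.867 CPM on plastic (2.09 ± 0.49, adjusted p = 0.017, and 0.078 without plastic replicate 2). Among those that fell, Bicra, a subunit of a chromatin remodelling complex, had 8.43, 6.09 and 6.07 CPM on unpatterned gelatin and 20.3, 19.98 and 19.6 CPM on plastic (-1.55 ± 0.29, adjusted p = 0.0072). Mrgprf, an orphan receptor, had 3.06, 2.36 and 2.25 CPM on unpatterned gelatin and 5.86, 7.47 and 6.58 CPM on plastic (-1.38 ± 0.19, adjusted p = 6.9e-04). Mbd6 (-1.33 ± 0.26, adjusted p = 0.0081) and Atn1 (-1.44 ± 0.29, adjusted p = 0.0094) also fell, at adjusted p of 0.051 and 0.054 without unpatterned replicate 3, and Atn1 shares 83.6% of its words with the overlapping Gm45234.

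Many of the steepest changes downward, and some upward, belong to loci whose sequence recurs elsewhere, so their values are uncertain. Gm29216, a pseudogene that shares 97.2% of its 31-base words with the mitochondrial gene mt-Co1, had 3.38, 2.36 and 2.25 CPM on unpatterned gelatin and 35.0, 31.2 and 125 CPM on plastic (-4.61 ± 0.57, adjusted p = 1.6e-04). The gene mt-Co1 itself had 13230, 17410 and 16440 CPM on unpatterned gelatin and 13870, 11700 and 15000 CPM on plastic. Gm28439, wholly contained in mt-Nd4 by the same measure, had 520, 769 and 456 CPM on unpatterned gelatin and 259, 125 and 122 CPM on plastic (1.79 ± 0.35, adjusted p = 0.0079). These pseudogenes moved in opposite directions, while mt-Co1 and mt-Nd4 did not pass (adjusted p = 0.69 and 0.73).

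Other steep falls were at loci that share few words with other genes among the deposited transcripts. The search covered annotated transcripts only and cannot show reads from sequence outside them. Few shared words therefore do not make these values certain. Gm20594 shares 10.02% of its words with the mitochondrial ribosomal RNA gene mt-Rnr2, which is not among those transcripts, and 0% with genes that are. Gm20594 had 1866, 2531 and 1646 CPM on unpatterned gelatin and 11000, 9191 and 9456 CPM on plastic (-2.29 ± 0.47, adjusted p = 0.0094, and 0.054 without unpatterned replicate 3). Lars2, the mitochondrial leucyl-tRNA synthetase, shares 0.67% of its words. It had 113, 205 and 149 CPM on unpatterned gelatin and 955, 923 and 1079 CPM on plastic (-2.66 ± 0.69, adjusted p = 0.027, and 0.11 without unpatterned replicate 3). The unclassified transcript AA474408, which shares few of its words with Lars2, had 26.2, 50.5 and 39.6 CPM on unpatterned gelatin and 318, 320 and 384 CPM on plastic (-3.13 ± 0.76, adjusted p = 0.019, and 0.080 without unpatterned replicate 3). The groups of all 3 are far apart at day 4, whereas at day 7 Lars2 had 76.2, 584 and 594 CPM on unpatterned gelatin and 367, 350 and 218 CPM on plastic. Gm6863, Mrip-ps, Gm12751, Gm20431 and Gm28042 fell, and 93.1% to 100% of their words recur in Naca, Mprip, Polr1d, Ube2v1, Pla2g4b or their neighbours, so no value is given for them.

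At day 7 the same substrates were compared in 6 other libraries, which share none with day 4. There 514 genes passed (3.46%), 369 higher (2.49%) and 145 lower (0.977%) on unpatterned gelatin. Of the genes higher at day 4, 154 were also higher at day 7, which is 25.8% of the day 4 genes and 41.7% of the day 7 genes. Of the genes lower at day 4, 42 were also lower at day 7, 7.32% of the day 4 genes and 29.0% of the day 7 genes, and 0 genes passed in opposite directions. The replicate spread was wider at day 7, with a biological coefficient of variation of 0.132 against 0.0704 at day 4, and the relation of change to GC content ran the other way across genes (Spearman rho 0.20 at day 7 and -0.40 at day 4, a description over genes, which are not independent).

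Of the 15 hypoxia genes that rose at day 4, 11 rose at day 7, where 14 of the 38 tested did. Car9 had 17.7, 12.6 and 15.2 CPM on day 7 unpatterned gelatin and 0.583, 0.771 and 0.539 CPM on day 7 plastic. Bnip3 had 129, 122 and 118 CPM on day 7 unpatterned gelatin and 78.9, 64.9 and 72.7 CPM on day 7 plastic. All 5 chemokine genes that rose at day 7 had risen at day 4, with Cxcl5 at 20.9, 9.82 and 9.31 CPM on day 7 unpatterned gelatin and 1.17, 2.20 and 1.58 CPM on day 7 plastic. Nos2 had 5.99, 2.78 and 3.74 CPM on day 7 unpatterned gelatin and 0.0449, 0 and 0 CPM on day 7 plastic. Of the 10 immediate early genes that rose at day 4, 3 rose at day 7.

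The test of the day 4 effect minus the day 7 effect called 0 genes in edgeR, with 1532 at an unadjusted p under 0.05 (10.3% of genes tested), and DESeq2 called 18, among them Phka1, Sdc1, Gm20594 and Gm29216. The smallest p belonged to Sdc1, a heparan sulfate proteoglycan, with 152, 145 and 156 CPM on unpatterned gelatin and 146, 158 and 147 CPM on plastic at day 4, and 141, 153 and 153 CPM on unpatterned gelatin and 100, 103 and 101 CPM on plastic at day 7 (difference -0.54 ± 0.09, edgeR adjusted p = 0.23).

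Patterned gelatin of day 4 was set directly against unpatterned gelatin, and 1 gene passed (0.00674%), Mtus1, named here because it was the only call, with 70.2, 67.5 and 72.9 CPM on patterned gelatin and 48.5, 48.5 and 48.8 CPM on unpatterned gelatin (0.53 ± 0.08, adjusted p = 0.045). By an unadjusted p under 0.05 there were 1281 genes (8.63%). The contrast between the gels was run only in the fit of all 21 C2C12 libraries. With only the 9 libraries of day 4, the count for unpatterned gelatin against plastic rose from 1171 to 3247. How many genes such a fit would call between the gels was not tested. The paper, which used Sleuth, reports many more genes between patterned and unpatterned gelatin at day 4. The single call therefore does not show that the gels are alike. No hypoxia gene passed between the gels, with Car9 at 6.82, 5.82 and 8.24 CPM on patterned gelatin against the 12.1, 9.26 and 7.77 CPM on unpatterned gelatin (-0.48 ± 0.20, adjusted p = 0.50). Ak4 stood at 8.59, 9.05 and 8.90 CPM on patterned gelatin against 12.2, 9.26 and 9.38 CPM on unpatterned gelatin (-0.21 ± 0.16, adjusted p = 0.76). No chemokine passed between the gels, with Cxcl5 at 6.28, 6.12 and 7.55 CPM on patterned gelatin against 13.5, 11.3 and 12.4 CPM on unpatterned gelatin (-0.90 ± 0.23, adjusted p = 0.16). Fos had 6.89, 7.70 and 8.28 CPM on patterned gelatin against 8.39, 8.21 and 22.2 CPM on unpatterned gelatin. Errfi1 had 48.5, 49.6 and 47.0 CPM on patterned gelatin against 58.4, 60.9 and 210 CPM on unpatterned gelatin.

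Markers of other cell types were low beside the myotube markers. The 7 osteoblast markers summed to 40.2 to 41.9 CPM on unpatterned gelatin and 50.9 to 55 CPM on plastic, with Ibsp at 0 in all 6 libraries. Within them Bglap2, an osteocalcin gene, had 5.14, 5.16 and 3.99 CPM on unpatterned gelatin and 11.8, 9.43 and 12.3 CPM on plastic (-1.24 ± 0.21, adjusted p = 0.0035). Its value is uncertain, since 95.2% of its 31-base words recur in Bglap and Bglap3. Sdc4, a syndecan used by satellite cells, was the only reserve cell marker called, with 183, 192 and 222 CPM on unpatterned gelatin and 141, 131 and 141 CPM on plastic (0.53 ± 0.10, adjusted p = 0.0079). Endothelial markers summed to 8.65 to 10.1 CPM on unpatterned gelatin and 7.65 to 9.18 CPM on plastic. Adipocyte markers summed to 21.2 to 22.1 CPM on unpatterned gelatin and 21.7 to 24.1 CPM on plastic. Fibroblast and tendon markers summed to 222 to 260 CPM on unpatterned gelatin and 244 to 285 CPM on plastic. Neural markers summed to 22.5 to 25.0 CPM on unpatterned gelatin and 23.1 to 27.4 CPM on plastic. Only the osteoblast sums do not overlap between the substrates, and the part of any minor cell type in the results was not tested.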

How the data were processed

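RNA from C2C12 cultures was sequenced as paired ends, and per the submitters' processing notes the reads were quantified with kallisto against mm10. The kallisto version was not given in the sources used here, nor was its transcript set. The authors deposited, for each library, estimated counts and TPM per transcript with effective lengths, and no replicates were pooled. The study's own transcript model, Sleuth, was not used here. Of 88198 transcripts, 86031 were matched to 30205 genes of GENCODE M21, and the 2167 unmatched, 0.723% to 0.893% of counts, were left out of the tests. The deposited estimated counts were summed per gene and rounded to whole numbers, and the deposited TPM were summed per gene for the alternatives on a log2 scale.

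All 21 C2C12 libraries, 7 groups of 3, were fitted with edgeR 4.0.16 (TMM, filterByExpr, quasi-likelihood F test, Benjamini-Hochberg adjustment over 14844 genes, threshold 0.05) in R 4.3.3. Errors of log2 fold changes are SE. The test was checked on simulated data for this comparison over 14706 genes, where 45% of genes changed by 0.5 (log2) and 99% of those changed by 1 were called, with 4 false calls among 148. The simulation gave all genes the same relative spread, with no GC or length trend between substrates and no outlying culture. It cannot show how many false calls those would give. Alternatives were DESeq2 1.42.0, limma 3.58.1 on log2 TPM plus 1 or 0.1, RLE size factors, no filter, fewer libraries, a replicate block and each library left out. Removal of each library's GC and length trend was chosen after seeing the data. Figures and tables used Python 3.11.15, pandas 2.3.3, numpy 2.4.6, scipy 1.17.1 and matplotlib 3.10.9. Shared sequence is the percent of a gene's 31-base words found in other genes.

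Genes were named by rule: the 15 highest and 15 lowest log2 fold changes among called genes averaging 1 or more in log2 CPM with no overlap between groups, at most 4 genes per list by smallest adjusted p, a panel of genes, and the 8 genes with the smallest adjusted p between days. Other genes of the lists were named after their values were seen. The members and lists were chosen with earlier results of these data known. Some genes picked by this rule are not reported here. No 2 libraries were alike within sampling noise.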

Additional observations from a re-analysis of the deposited data

How the results depend on the processing

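The day 4 count of 1171 genes, 597 higher and 574 lower, varied with the setting. It was 3223 (1601 higher, 1622 lower) with only the 6 libraries compared, 3247 (1665, 1582) with the 9 libraries of day 4, and 1803 with DESeq2 (1019 higher). With the GC and length trend removed it was 650 (242 lower), 462 of them among the 1171. It was 2887 (1477, 1410) when that was done with only the 6 libraries. limma gave 914 higher and 52 lower on log2 TPM plus 0.1 and 950 higher and 62 lower on log2 TPM plus 1, scales on which the median of all genes shifted by 0.118 and 0.0967. Without a filter 381 were lower. Leaving out a library gave 263 to 891 genes, 177 to 511 higher and 72 to 380 lower. No gene called in the count test was called in the opposite direction under these settings. The cause of these differences was not tested.

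Same-numbered cultures of day 4 had correlations of -0.144, -0.0467 and 0.231, so the numbers were not taken to pair them. The replicate block gave 1184 genes (592 higher, 592 lower), and 3052 (1503, 1549) with only the 6 libraries. For the difference between days DESeq2 called 18 genes (5 higher, 13 lower), the fit of the 12 libraries of the 4 groups called 1, which was lower, and leaving out a library gave 0 to 0.

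Limits are few replicates of a single cell line, a GC and length trend that differs between the substrates, low counts for chemokine and complement genes, and transcripts whose reads recur in other genes.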

Other observations

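Several genes outside the lists, chosen after their values were seen, moved as firmly as the list members. Acpp, the prostatic acid phosphatase, had 9.31, 8.61 and 10.4 CPM on unpatterned gelatin and 3.53, 4.27 and 3.98 CPM on plastic (1.27 ± 0.13, edgeR adjusted p = 1.1e-05). Sgk1, a kinase induced by serum and glucocorticoids, had 66.7, 66.6 and 86.6 CPM on unpatterned gelatin and 47.6, 48.3 and 48.3 CPM on plastic (0.61 ± 0.11, adjusted p = 0.0042). Lbp, the lipopolysaccharide binding protein, had 4.03, 3.09 and 4.23 CPM on unpatterned gelatin and 1.48, 1.71 and 1.70 CPM on plastic (1.21 ± 0.21, adjusted p = 0.0045). Steap4, a metalloreductase, had 1.99, 1.75 and 2.52 CPM on unpatterned gelatin and 0, 0.0854 and 0.0531 CPM on plastic (adjusted p = 5.4e-05). In each of these the groups do not overlap, as in 1169 of the 1171 genes called.

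Among genes that fell, Mapt, which encodes the microtubule protein tau, had 28.0, 25.1 and 29.6 CPM on unpatterned gelatin and 47.1, 48.3 and 46.0 CPM on plastic (-0.77 ± 0.12, adjusted p = 0.0014). Creb3l1, a membrane-bound factor that drives collagen secretion, had 37.0, 31.3 and 28.2 CPM on unpatterned gelatin and 61.5, 70.2 and 65.6 CPM on plastic (-1.03 ± 0.20, adjusted p = 0.0079). Kmt2d, a histone methyltransferase, fell too, with 231, 180 and 158 CPM on unpatterned gelatin and 446, 474 and 461 CPM on plastic (-1.28 ± 0.33, adjusted p = 0.025, and 0.12 without unpatterned replicate 3).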
